A study of Mus musculus with 15 samples.

Results

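Tumours of 2 mouse brain tumour models, each carrying the Sox9 gain of function (Sox9-GOF), were compared directly with each other. The 3 libraries labelled EPN Sox9-GOF (EPN is the field's abbreviation of ependymoma) stood against the 3 labelled HGG Sox9-GOF (HGG, of high-grade glioma). These are 6 of the 15 libraries of the series, chosen by genotype label alone, and all 24421 genes listed for them were examined. The 3 EPN control and 3 HGG control libraries served as a second comparison of the models that shares no library with the first, and the 3 HGG Sox9-LOF libraries entered only 1 alternative, in which all 15 libraries shared an estimate of the spread. Each library was made with a stranded kit from polyA RNA of frozen brain tumour tissue. The sources used here do not say how either tumour model or the gain of function was made, nor the age or strain of the mice. The labels do not say whether the 3 libraries of a group came from separate mice, so p-values measure only the spread between these samples, which may be technical. The HGG Sox9-GOF group held libraries of both sexes (below), so its 3 libraries did not all come from 1 mouse. The values are reads rescaled so that the 6 libraries can be compared (rescaled reads). They are not divided by gene length, so levels were compared between libraries and not between genes. In what follows EPN and HGG stand for the 2 gain-of-function groups unless controls are named, and a log2 fold change is that of EPN over HGG on the scale log2(rescaled reads + 1), so that positive values are higher in EPN. A value written with ± is this log2 fold change with its standard error, n = 3 in every group. A gene was called at an adjusted p of up to 0.05 (limma, Benjamini-Hochberg over all genes tested).

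High-grade gliomas are tumours whose cells carry programmes of astrocytes, oligodendrocyte precursors and neurons, and they often depend on PDGF or EGF receptor signalling. Ependymomas of the forebrain resemble radial glia, and many carry a fusion of ZFTA with RELA, the NF-kB subunit, which drives genes such as L1CAM and CCND1. SOX9 is an HMG-box transcription factor that keeps neural stem cells and astrocytes in their state, directs cartilage formation with SOX5 and SOX6, and drives Sertoli cells of the testis together with NR5A1.

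Library sizes overlapped, from 10578708 to 13273065 reads in HGG and from 10957005 to 14119140 in EPN. Pearson correlations of log2(rescaled reads + 1) across the genes tested, which are not independent replicates, were 0.9293 to 0.9463 within EPN, 0.9387 to 0.9512 within HGG and 0.6514 to 0.7351 between the groups. Sex differed between the libraries: Xist was high in HGG 1 and HGG 3 (5588 and 11210 rescaled reads), whereas HGG 2 and all 3 EPN libraries expressed the Y-linked gene Eif2s3y at 488 to 945 rescaled reads. HGG 2 was thus the 1 HGG library of the same sex as EPN, and the part of sex in the differences was not tested. The Spearman correlation across genes between GC content and a library's deviation from the mean of the 6 ran from -0.144 to -0.094 in HGG and from -0.011 to 0.285 in EPN. With the libraries corrected for GC content, 5611 of the 6165 genes called between the groups were still called, and of the genes named here Gli2, Mylk, Nfic and Nfkb2 were not.

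Sox9 itself was only slightly higher in EPN. The Sox9 gene (chromosome 11, 112782210 to 112787757, GRCm38.p6) had 2543, 2237 and 3336 rescaled reads in EPN 1 to 3 and 1581, 1898 and 1742 in HGG 1 to 3. The groups did not overlap, with EPN 3 the highest library. The log2 fold change was 0.62 ± 0.20, adjusted p = 0.042, close to the threshold. In Sox9 the call was lost without EPN 1 or 3 or HGG 1 or 2 or 3 (0.66, 0.48, 0.54, 0.67 and 0.61), and also with scaling to the total of reads (0.47). The controls differed much more, at 921, 915 and 1042 rescaled reads in EPN controls against 194, 248 and 277 in HGG controls (log2 fold change 2.01 ± 0.19, adjusted p = 0.0043). The difference between these 2 model contrasts was itself called (-1.37 ± 0.26, adjusted p = 0.022), so the models stood closer together in Sox9 with the gain of function than in the controls. That call was lost without HGG Sox9-GOF 2 or 3 or EPN control 2 or 3 (-1.30, -1.36, -1.41 and -1.32), and with a correction for GC content (-1.32). Reads of an added Sox9 copy and of the native gene cannot be told apart in these counts.

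Of the genes that define the 2 human tumour types, the partners of the ependymoma fusion were higher in EPN. Zfta (listed under its older name 2700081O15Rik, chromosome 19, 7417625 to 7425908) had 3571, 3309 and 3977 rescaled reads in EPN and 313, 710.4 and 321 in HGG (3.12 ± 0.32, adjusted p = 0.00039). The lowest EPN library stood far above the highest HGG library, HGG 2. Rela (chromosome 19, 5637442 to 5648134) had 824, 1292 and 1638 in EPN and 387, 425 and 385 in HGG (1.59 ± 0.26, adjusted p = 0.0025). Reads of a fusion or transgene cannot be told apart from those of the native genes, and the sources used here do not say whether the EPN model carries one. Rela was not called in the controls (0.19 ± 0.23, adjusted p = 0.58), and the test of the difference was called at the threshold (1.42 ± 0.36, adjusted p = 0.045). Without any 1 of 10 of the 12 libraries that call was lost, with values of 1.19 to 1.57, and with a correction for GC content it was 0.78 and lost as well. The tumour suppressors Trp53 and Nf1 did not pass the test: Trp53 was 0.43 ± 0.24, adjusted p = 0.20, and Nf1, the RAS inhibitor, was 0.34 ± 0.23, adjusted p = 0.28. Braf, a RAF kinase, was lower in EPN (-1.76 ± 0.23, adjusted p = 0.00099), as was the chromatin remodeller Atrx (-1.34 ± 0.31, adjusted p = 0.011).

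Between the 2 gain-of-function models, 6165 of 15230 genes tested were called (40.5%), 2905 higher in EPN (19.1%) and 3260 higher in HGG (21.4%). Counts over groups of genes are to be read against these shares, and the median log2 fold change over all genes was 0.02. Genes entered the test at a mean of at least 10 rescaled reads over the 6 libraries, so a gene silent in 1 group was tested only if it was expressed in the other. The 3 libraries of a group did not overlap those of the other in 6128 of the called genes, and in 54.7% of all genes tested. At least 4-fold differences were more frequent towards HGG (1873 genes against 1009), but the most extreme were nearly all towards EPN: 89 called genes were at least 64-fold higher in EPN and 8 in HGG. The ratio of the directions moved with the scaling, from 2905 and 3260 to 2353 and 3725 when libraries were scaled to their total of reads, which shifted the median of all genes to -0.13.

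**Figure D1:**
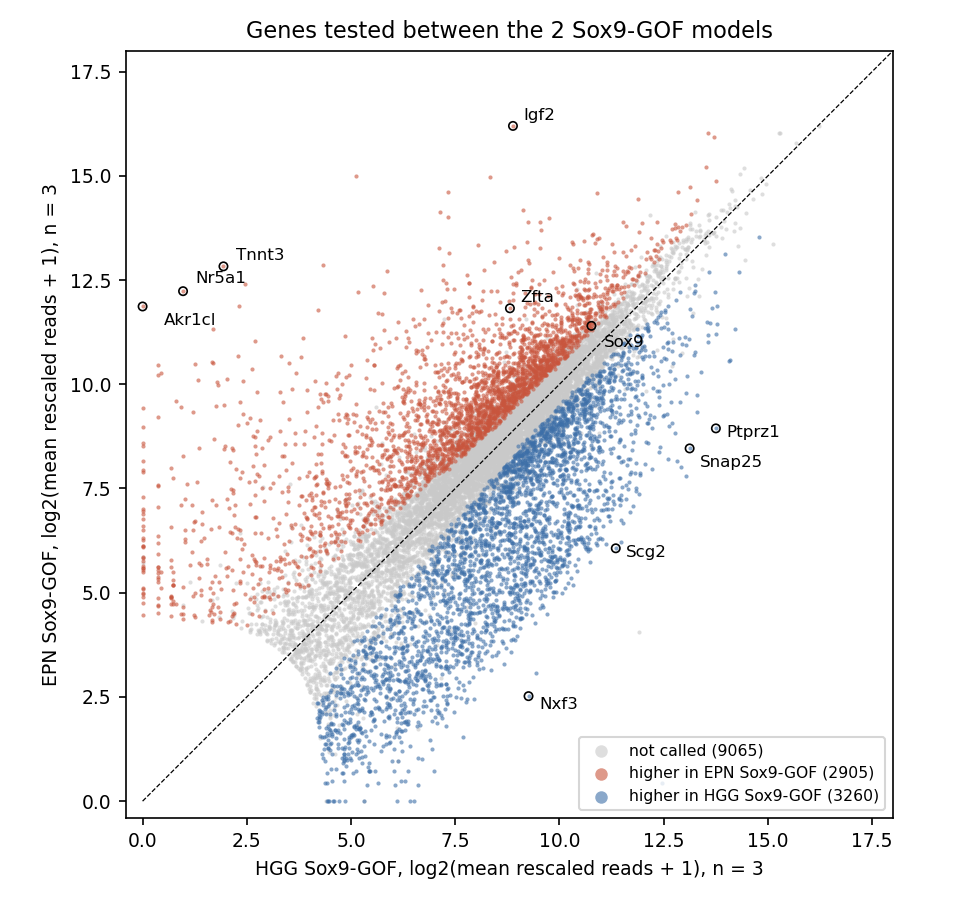
Log2(mean rescaled reads + 1) of each of the 15230 genes tested in the 3 HGG Sox9-GOF libraries (horizontal axis) and the 3 EPN Sox9-GOF libraries (vertical axis). Coloured points are the 2905 genes called higher in EPN and the 3260 called higher in HGG, and the labelled genes along the left edge, such as Akr1cl and Nr5a1, were near 0 in HGG.

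The largest differences towards EPN included nuclear receptors and factors of the gonads and adrenal gland. They were taken among called genes whose higher group had a mean of at least 100 rescaled reads and whose groups did not overlap, without predicted genes and sex-linked genes. Akr1cl, an aldo-keto reductase (chromosome 1, 65013078 to 65032759), had 3636, 3996 and 3563 rescaled reads in EPN and 0 in each HGG library. Against a floor of 3 reads over the HGG group it was at least 3903-fold higher. Nr5a1 (steroidogenic factor 1, chromosome 2, 38692656 to 38714542), which directs adrenal and gonadal development, had 5275, 4212 and 4952 in EPN against 1.78, 0 and 1.10 in HGG, where 3 reads were counted in all. The ratio was 5059 (95% counting interval 1731 to 24530), where the interval covers counting error only. All EPN libraries were thus far above all HGG libraries, which were near 0, and the adjusted p was 2.18e-05. Nr0b2, a corepressor of nuclear receptors, had 1457, 1615 and 1184 in EPN and 1 read in HGG, a ratio of 4483 (95% counting interval 804 to 177100). Gata4, a GATA factor of heart and gonad, had 1449, 372 and 1882 in EPN and 1 read in HGG, a ratio of 3845 (95% counting interval 689.7 to 151900), with EPN 2 the lowest of its group. Dmrt1, a factor of testis determination, had 869.9, 433 and 758 in EPN and none in HGG, and was at least 728-fold higher. The controls differed in the same direction for each of the 5, with adjusted p from 0.00021 for Akr1cl to 0.0043 for Gata4.

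Part of the steroidogenic list, to which Nr5a1 belongs, was higher in EPN. Of 15 listed genes, 9 were tested and 8 were called higher in EPN, with a median log2 fold change of 3.75. The other 6 were too low to test, and genes near 0 in HGG, such as Mc2r, entered the test only through EPN. Whether Nr5a1 drove any of these genes was not tested. Mc2r, the ACTH receptor, had 900.2, 1063 and 2338 rescaled reads in EPN and 0, 0.91 and 3.30 in HGG (9.34 ± 0.62, adjusted p = 0.00012). Inha, the inhibin alpha subunit, had 4105, 1621 and 8183 in EPN and 45.4, 57.1 and 59.3 in HGG (6.12 ± 0.53, adjusted p = 0.00020). Fdxr, the reductase that feeds electrons to mitochondrial P450 enzymes, was 3.75 ± 0.22, adjusted p = 7.95e-05. Scarb1, the receptor for HDL cholesterol, was 2.26 ± 0.36, adjusted p = 0.0021, and Fdx1, the ferredoxin that Fdxr reduces, was 1.74 ± 0.31, adjusted p = 0.0034. Later enzymes of steroid synthesis were near 0 in EPN: Cyp17a1 had 4.46, 0 and 0 rescaled reads and Cyp11b1 and Hsd3b6 had 0 in every EPN library. Star, the cholesterol carrier that starts synthesis, was not higher in EPN (52.6, 39.4 and 78.5 in EPN against 78.3, 85.2 and 98.9 in HGG, -0.66 ± 0.36, adjusted p = 0.18). Cyp11a1, which cleaves the side chain of cholesterol, had 111, 18.1 and 13.1 in EPN and 0.89, 2.72 and 5.49 in HGG (3.12 ± 0.91, adjusted p = 0.029), with EPN 1 the highest. For Cyp11a1 the call was lost without HGG 1 or 2 (2.65 and 3.13), and with a pseudocount of 8 (1.89).

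Some troponin genes, and most tested genes of the uroplakin, mesothelial and keratin list, were also high in EPN. Tnnt3, the fast skeletal troponin T, had 9106, 7360.3 and 5350 rescaled reads in EPN and 1.78, 4.53 and 2.20 in HGG (10.92 ± 0.35, adjusted p = 1.61e-05). Tnni3, the cardiac troponin I, had 433, 219 and 2066 in EPN and 7.12, 0 and 9.89 in HGG (7.03 ± 1.10, adjusted p = 0.0020), with EPN 3 the highest. Of the 8 troponin genes 6 were tested and 3 were called, all higher in EPN. Tnnt3 and Tnni3, low in HGG, entered the test only through EPN. The cardiac Tnnt2 had 4.46, 14.9 and 10.7 in EPN and 29.4, 22.7 and 21.97 in HGG and did not pass (-1.34 ± 0.55, adjusted p = 0.090). Of 12 uroplakin, mesothelial and keratin genes 8 were tested and 6 were called higher in EPN. The other 4 were not tested, and genes near 0 in HGG, such as Upk3b, entered the test only through EPN. Upk3b, a uroplakin of mesothelium, had 1161, 328 and 2096 in EPN and 1 read in HGG, a ratio of 3645 (95% counting interval 654 to 144000). Wt1, a zinc-finger factor of mesothelium and gonad, had 1731, 679 and 2427 in EPN and 27.6, 2.72 and 8.79 in HGG (7.13 ± 0.78, adjusted p = 0.00045). Krt18, a simple keratin, had 647, 1577 and 4449 in EPN and 0.89, 6.34 and 32.96 in HGG (7.73 ± 1.08, adjusted p = 0.0012). Mesothelin, Msln, did not follow them (0.89, 37.2 and 14.3 in EPN and 28.5, 44.4 and 56.0 in HGG, -2.04 ± 1.04, adjusted p = 0.16). EPN 3 was the highest library for Tnni3, Upk3b, Wt1 and Krt18, and EPN 1 for Tnnt3. Among the other genes with large differences were Tinagl1, a matrix protein (10.07 ± 0.47, adjusted p = 4.79e-05), Muc6, a gastric mucin (9.17 ± 0.76, adjusted p = 0.00018), and Alox12, a lipoxygenase (8.89 ± 0.44, adjusted p = 4.86e-05). The membrane protein Tmem184a (9.85 ± 0.83, adjusted p = 0.00019) and the secreted Cytl1 (8.94 ± 0.73, adjusted p = 0.00017) were others. Atp6v1b1, a proton pump subunit of kidney and inner ear, had 2 reads in HGG and a ratio of 1154 (95% counting interval 319 to 9534), and Reg3g, an antimicrobial lectin, had none and was at least 566-fold higher.

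**Figure D2:**
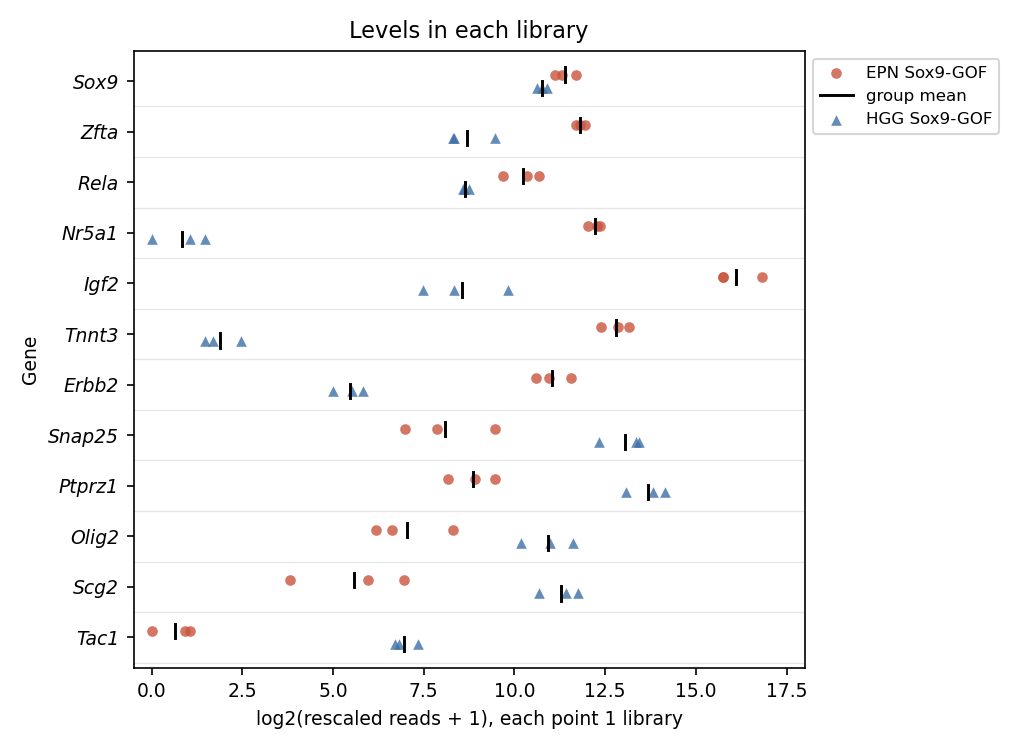
Level of 12 genes in each library, as log2(rescaled reads + 1), with EPN Sox9-GOF as circles and HGG Sox9-GOF as triangles, and the group mean as a bar. Sox9 lies close together in both groups, the genes from Zfta to Erbb2 are higher in all EPN libraries, and those from Snap25 to Tac1 are higher in all HGG libraries.

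Insulin-like growth factor 2 and its imprinted neighbour H19 were both higher in EPN. Igf2, a fetal growth factor expressed from the paternal allele (chromosome 7, 142650768 to 142666816), had 115810, 54826 and 54748 rescaled reads in EPN and 179, 323 and 912 in HGG (7.55 ± 0.59, adjusted p = 0.00015). The neighbouring imprinted noncoding RNA H19 (142575530 to 142578146) had 19301, 25550 and 50857 in EPN and 98.8, 529 and 333 in HGG (6.81 ± 0.62, adjusted p = 0.00025). EPN 1 was the highest library for Igf2 and the lowest of its group for H19, and the groups were far from overlapping for both. Igf2r, the scavenging receptor, was higher in EPN as well (2.28 ± 0.20, adjusted p = 0.00022). The signalling receptor Igf1r had 762, 616 and 1003 in EPN against 384, 605 and 503 in HGG and did not pass the test (0.67 ± 0.26, adjusted p = 0.072). The binding proteins went both ways: Igfbp7 (3.72 ± 0.35, adjusted p = 0.00028) and Igfbp3 (2.16 ± 0.36, adjusted p = 0.0026) were higher in EPN and Igfbp6 in HGG (-1.40 ± 0.34, adjusted p = 0.014). The docking protein Irs2 was higher in HGG (-1.64 ± 0.33, adjusted p = 0.0064). In all, 6 of 16 tested genes of the axis were called higher in EPN and 2 in HGG.

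In the NF-kB pathway RELA or RELB dimers with NFKB1 or NFKB2 bind DNA and switch on their own inhibitors. It was called higher in EPN for 11 of 25 tested genes (2 of the 27 listed were not tested), and in HGG for 1, with a median of 0.83. The promoters of 4 of the called genes are given here because their letters hold the NF-kB consensus, a 10-letter motif, together with that of Sox2, which holds the SOX core ACAAAG and was called in the other direction. Each runs from 250 bases before to 50 after a transcript start (the first that the RefSeq table lists for the gene, GRCm38.p6, strand as the gene), which can lie inside the outer bounds of the gene, and capitals mark matches to either motif on either strand, where overlapping matches merge. They span chr7:19822706-19823005 (minus strand) for Bcl3, chr11:54962891-54963190 (minus strand) for Tnip1, chr5:90903649-90903948 (plus strand) for Cxcl2, chr19:46304487-46304786 (plus strand) for Nfkb2 and chr3:34649745-34650044 (plus strand) for Sox2.

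Bcl3: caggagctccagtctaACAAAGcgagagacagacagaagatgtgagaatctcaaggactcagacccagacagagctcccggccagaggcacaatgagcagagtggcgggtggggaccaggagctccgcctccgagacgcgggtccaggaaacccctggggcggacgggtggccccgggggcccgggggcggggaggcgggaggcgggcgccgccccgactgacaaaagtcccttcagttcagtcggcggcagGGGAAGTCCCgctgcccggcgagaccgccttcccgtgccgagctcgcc
Tnip1: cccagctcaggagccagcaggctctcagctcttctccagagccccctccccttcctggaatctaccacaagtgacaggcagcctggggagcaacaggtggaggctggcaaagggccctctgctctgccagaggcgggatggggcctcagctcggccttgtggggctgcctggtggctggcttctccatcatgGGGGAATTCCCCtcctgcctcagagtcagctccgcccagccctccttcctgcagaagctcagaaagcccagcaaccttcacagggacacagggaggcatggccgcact
Cxcl2: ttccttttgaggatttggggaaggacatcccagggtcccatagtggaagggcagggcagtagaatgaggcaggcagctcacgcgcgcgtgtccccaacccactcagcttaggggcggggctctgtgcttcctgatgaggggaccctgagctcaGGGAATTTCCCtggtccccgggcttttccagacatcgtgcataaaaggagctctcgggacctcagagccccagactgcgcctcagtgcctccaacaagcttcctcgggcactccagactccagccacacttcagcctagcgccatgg
Nfkb2: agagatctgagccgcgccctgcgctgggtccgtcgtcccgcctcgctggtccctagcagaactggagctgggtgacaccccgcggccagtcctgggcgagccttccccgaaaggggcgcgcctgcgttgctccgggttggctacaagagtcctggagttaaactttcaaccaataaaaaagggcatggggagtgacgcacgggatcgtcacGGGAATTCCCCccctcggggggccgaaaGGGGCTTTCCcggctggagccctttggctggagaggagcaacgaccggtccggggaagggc
Sox2: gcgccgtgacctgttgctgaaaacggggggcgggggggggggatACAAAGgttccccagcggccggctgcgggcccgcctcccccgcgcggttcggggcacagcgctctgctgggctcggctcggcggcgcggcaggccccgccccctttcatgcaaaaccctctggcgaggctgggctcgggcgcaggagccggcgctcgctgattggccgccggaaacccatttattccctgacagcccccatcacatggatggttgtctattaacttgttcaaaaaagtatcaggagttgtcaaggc

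Bcl3, an atypical IkB that binds NFKB1 and NFKB2, had 774, 676 and 805 rescaled reads in EPN and 132, 48.9 and 115 in HGG (3.03 ± 0.38, adjusted p = 0.00075). Tnip1, which dampens NF-kB with TNFAIP3, had 1779.9, 2274 and 2638 in EPN and 431, 328 and 412 in HGG (2.503 ± 0.21, adjusted p = 0.00019). Cxcl2, a neutrophil chemokine, had 45.5, 196 and 282 in EPN and 3.56, 3.62 and 3.30 in HGG (4.93 ± 0.69, adjusted p = 0.0012). In these genes every EPN library exceeded every HGG library, and for Cxcl2 EPN 1 was the lowest of its group. Nfkb2 had 476, 814 and 471 in EPN and 366, 119 and 283 in HGG (1.29 ± 0.44, adjusted p = 0.050), with the highest EPN and the lowest HGG value in the libraries numbered 2. It stood at the threshold, and the call was lost without EPN 1 or 2 or 3 or HGG 2 or 3 (1.42, 1.04, 1.45, 0.81 and 1.43). It was lost as well with edgeR (1.204), with scaling to the total of reads (1.14) and with the GC correction (1.015). Ikbke, an IkB kinase, was 3.42 ± 0.53, adjusted p = 0.0019, and Nfkb1 was 1.34 ± 0.19, adjusted p = 0.0013. The inhibitors Nfkbia (0.68 ± 0.32, adjusted p = 0.13) and Tnfaip3 (-0.56 ± 0.48, adjusted p = 0.38) did not pass. The adhesion receptor Vcam1 was higher in HGG (-2.29 ± 0.61, adjusted p = 0.021), where the call was lost without HGG 1 or 3 (-1.94 and -2.33). Of 19 promoters of tested NF-kB genes, 12 held the consensus (63.2%), against 10.3% of the 11465 promoters of tested genes. The list was made of known NF-kB genes, so this share describes the list and not the models. Among called genes the consensus stood in 11% of promoters of those higher in EPN and 10.3% of those higher in HGG. The SOX core stood in 13.7% of all promoters, in 13.9% of those of genes higher in EPN and in 13.1% of those higher in HGG. It stood in 0 of 14 promoters of tested cartilage genes, 2 of 10 of SOX genes and 2 of 5 of steroidogenic genes. The cartilage promoters held the NF-kB consensus in 4 of 14 cases. A match describes these letters only, and no binding was measured.

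Among 11 genes known from ZFTA-RELA ependymoma, 4 were called higher in EPN and 2 in HGG, so they split. Ephb2, an ephrin receptor, had 3547, 2904 and 4848 in EPN and 158, 352 and 214 in HGG (4.004 ± 0.33, adjusted p = 0.00017). L1cam, the adhesion molecule that marks the human tumour, was lower in EPN, with 58.9, 49.99 and 40.4 rescaled reads against 678, 514 and 445 in HGG (-3.42 ± 0.28, adjusted p = 0.00017). Ccnd1, the cyclin that marks it too, had 10598, 8445 and 11342 in EPN and 5169, 8112 and 3028 in HGG, where HGG 2 came close to the lowest EPN library, and did not pass (1.000 ± 0.36, adjusted p = 0.060).

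Hedgehog receptors and effectors were mostly higher in EPN, 7 of 10 tested genes (median 1.93), with 1 higher in HGG. Cdon, a coreceptor, had 2176, 2482 and 1776 rescaled reads in EPN and 69.4, 150.4 and 141 in HGG (4.21 ± 0.32, adjusted p = 0.00015). The coreceptors Boc (2.40 ± 0.36, adjusted p = 0.0016) and Gas1 (2.08 ± 0.45, adjusted p = 0.0081) were higher in EPN. So were the transducer Smo (1.48 ± 0.20, adjusted p = 0.0011) and the effector Gli3 (2.75 ± 0.46, adjusted p = 0.0028). Gli2 was too (1.78 ± 0.50, adjusted p = 0.024), but the call was lost without EPN 1 or HGG 1 or 2 (1.31, 1.49 and 1.82) and with the GC correction (1.51). The ligand Shh had no read in EPN and 19.6, 4.53 and 26.4 in HGG. The target Gli1 had 11.6, 1.06 and 7.14 in EPN and 5.34, 6.34 and 13.2 in HGG. Ptch1, the receptor that the pathway induces, did not pass (-0.82 ± 0.49, adjusted p = 0.22). Hhip, a secreted inhibitor, was higher in HGG (-2.996 ± 0.39, adjusted p = 0.00089).

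Neuronal and glial genes formed the other side of the contrast. Of 25 neuronal genes, 22 were called higher in HGG and none in EPN, with a median log2 fold change of -4.02. Snap25, a SNARE of synaptic vesicles, had 699, 231 and 125 rescaled reads in EPN and 10534, 5161 and 11036 in HGG (-4.95 ± 0.61, adjusted p = 0.00070). Syt1, the calcium sensor of vesicle release, had 549.6, 233 and 94.0 in EPN and 7547, 3915 and 7349.9 in HGG (-4.71 ± 0.60, adjusted p = 0.00082). Rbfox3, the nuclear neuron marker, had 88.3, 191 and 44.0 in EPN and 963, 569 and 978 in HGG (-3.15 ± 0.51, adjusted p = 0.0024). Each gene was lowest in EPN 3 and every HGG library was above every EPN library. Gad2, which makes GABA, was -5.31 ± 0.57, adjusted p = 0.00042, Slc17a6, a glutamate transporter, -4.37 ± 0.47, adjusted p = 0.00042. Reln, the reelin of migrating neurons, was -3.96 ± 0.38, adjusted p = 0.00030, and Eno2, the neuronal enolase, -2.95 ± 0.24, adjusted p = 0.00017. The list summed to between 6272 and 8180.4 rescaled reads in EPN and between 43444 and 67221 in HGG. Map2, a dendritic microtubule protein, was also higher in HGG (-2.17 ± 0.19, adjusted p = 0.00022). In bulk tissue fewer cells of a type and less RNA per cell cannot be told apart, and whether neurons around the tumour or tumour cells carried these reads was not tested.

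The 15 largest differences towards HGG, taken by the same rule, included neuronal genes. Tac1, the substance P precursor (chromosome 6, 7555061 to 7562978), had 0.89, 1.06 and 0 rescaled reads in EPN, from 2 reads, and 103, 162 and 112 in HGG, a ratio of 184 (95% counting interval 50.5 to 1521) in favour of HGG. Scg2, a granin of secretory vesicles (chromosome 1, 79434366 to 79440026), had 123, 61.7 and 13.1 in EPN and 3417, 1644 and 2766 in HGG (-5.70 ± 0.73, adjusted p = 0.00086). The serotonin receptor Htr2c was -6.44 ± 0.68, adjusted p = 0.00042, and the NMDA receptor subunit Grin2b -5.82 ± 0.88, adjusted p = 0.0017. The potassium channel subunit Kcns2 was -6.11 ± 0.92, adjusted p = 0.0016 and the olfactomedin Olfm3 -5.86 ± 0.97, adjusted p = 0.0026. Nxf3, of the RNA export factor family, had the largest of them (-6.74 ± 0.55, adjusted p = 0.00017), from 2.68, 3.19 and 8.33 in EPN and 733, 806 and 294 in HGG. Susd5 (-6.60 ± 0.76), Fam135b (-6.02 ± 0.93), Zdbf2 (-5.97 ± 0.80), Rab9b (-5.71 ± 0.53), Elmod1 (-5.64 ± 1.17), Cdr1 (-5.63 ± 0.82), Tmem178b (-5.61 ± 0.86) and Baiap3 (-5.57 ± 0.85) completed the 15.

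Oligodendrocyte precursor genes were higher in HGG in 17 of 20 cases and in EPN in none (median -3.64). Olig2, the lineage factor, had 98.1, 313 and 71.4 rescaled reads in EPN and 2013, 3118 and 1152 in HGG (-3.88 ± 0.58, adjusted p = 0.0016). Pdgfra, the PDGF receptor of these cells, had 1262, 502 and 507 in EPN and 4346, 11608 and 3699 in HGG (-3.06 ± 0.52, adjusted p = 0.0028). Cspg4, the NG2 proteoglycan, was -2.24 ± 0.43, adjusted p = 0.0049. Ptprz1, a receptor phosphatase, had 484, 702 and 287 in EPN and 18330, 14389 and 8652 in HGG (-4.84 ± 0.39, adjusted p = 0.00017). Pcdh15, a protocadherin, had 40.1, 40.4 and 24.98 in EPN and 1239.5, 1927 and 681 in HGG (-5.06 ± 0.41, adjusted p = 0.00017). HGG 2 was the highest library for Olig2, Pdgfra and Pcdh15, and all 3 HGG libraries lay above all EPN libraries for each of the genes just named. The receptor Gpr17 was -5.03 ± 0.61, adjusted p = 0.00069. Sox10, which acts with Olig2 in this lineage, did not follow: 2111, 2623 and 4204 in EPN and 2702, 2481 and 1350.2 in HGG overlapped (0.45 ± 0.35, adjusted p = 0.33).

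Myelin and astrocyte genes leaned towards HGG less evenly. Of 16 genes of mature oligodendrocytes 6 were called higher in HGG and 2 in EPN. Mbp, myelin basic protein, had 4274, 18930 and 1084 in EPN and 6315, 19727 and 40710 in HGG, which overlapped, and did not pass (-1.95 ± 1.06, adjusted p = 0.18). Ugt8a, which makes the myelin lipid galactosylceramide, was -2.89 ± 0.31, adjusted p = 0.00045. The 2 genes higher in EPN were Myrf, the myelin regulatory factor (5876, 3232 and 6477 in EPN against 295, 609 and 1022 in HGG, 3.13 ± 0.47, adjusted p = 0.0016), and Trf, transferrin (2.52 ± 0.38, adjusted p = 0.0016). Of 24 astrocyte genes 12 were called higher in HGG and 1, Clu, clusterin, in EPN (2.63 ± 0.54, adjusted p = 0.0066), with a median of -1.51. Aqp4, the water channel, had 1423, 1340.2 and 344 rescaled reads in EPN and 2916, 6459.7 and 9739.5 in HGG (-2.71 ± 0.63, adjusted p = 0.012). Slc1a2, the glutamate transporter, had 1666, 1974 and 992 in EPN and 5736, 12767 and 33789 in HGG (-3.19 ± 0.60, adjusted p = 0.0047). HGG 3 was the highest library for both and HGG 1 the lowest of its group. Aldh1l1, a folate enzyme, was -1.504 ± 0.31, adjusted p = 0.0071, and Gfap, the glial filament, overlapped between the groups (6467, 21738 and 3692 in EPN against 15920, 25451 and 64790 in HGG, -1.89 ± 0.73, adjusted p = 0.076). Choroid plexus genes showed 1 library apart: Ttr, transthyretin, had 1.78, 39.4 and 5.95 in EPN and 64.1, 43.5 and 11464 in HGG, so that the value of HGG rests on HGG 3.

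The label EPN was set against genes of ependymal cells. The motile cilia list did not mark the EPN libraries: of 24 genes tested 9 were called higher in HGG and 2 in EPN (median -1.73). Foxj1, the master factor of motile cilia, had 84.8, 131 and 15.5 rescaled reads in EPN and 85.4, 126 and 239.5 in HGG (-1.28 ± 0.78, adjusted p = 0.23). Rsph1, a radial spoke protein, had 17.8, 42.5 and 59.5 in EPN and 38.3, 55.3 and 61.5 in HGG (-0.49 ± 0.51, adjusted p = 0.47). Hydin, a protein of the ciliary central pair, was 1 of the 2, with 574, 1082 and 740.0 in EPN and 5.34, 28.1 and 21.97 in HGG (5.58 ± 0.59, adjusted p = 0.00040). The other was Ak7, an adenylate kinase (1.28 ± 0.40, adjusted p = 0.035), for which the call was lost without EPN 1 or 3 or HGG 1 or 2 (1.23, 1.12, 1.06 and 1.27) and with scaling to the total of reads (1.14). Dnah9, an axonemal dynein, was -3.39 ± 0.74, adjusted p = 0.0085, and Rfx3, a ciliary transcription factor, -2.15 ± 0.32, adjusted p = 0.0016. Of 15 neural stem and radial glia genes 5 were called in each direction. Nes, nestin, had 2369, 3184 and 3882 in EPN and 1519, 1346 and 691 in HGG (1.46 ± 0.33, adjusted p = 0.011), and Vim, vimentin, was 1.58 ± 0.25, adjusted p = 0.0020. Lifr, a cytokine receptor, was also higher in EPN (1.35 ± 0.19, adjusted p = 0.0012). Sox2, Sox1, Ptn, a heparin-binding factor (-2.85 ± 0.41, adjusted p = 0.0013), and Hopx, a homeodomain protein (-2.33 ± 0.48, adjusted p = 0.0068), were higher in HGG. Fabp7, the fatty acid binding protein of radial glia, had 877, 1665 and 99.9 in EPN and 10921, 10234 and 4139.7 in HGG (-3.87 ± 0.96, adjusted p = 0.015). For Fabp7 the call was lost without HGG 2 (-3.68).

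Within the SOX family, 4 of 16 tested genes were called higher in EPN, Sox9 among them, and 4 in HGG, so there was no common direction. Both counts lay near the shares of all genes tested (19.1% and 21.4%). The median was -0.20 and changed sign without HGG 2 (0.09) and without EPN 3 (0.03). The SoxB factors of neural progenitors, among them Sox2 with the promoter printed beside the NF-kB genes, were higher in HGG. Sox2 had 412, 399 and 182 rescaled reads in EPN and 1118, 1566 and 967 in HGG (-1.94 ± 0.35, adjusted p = 0.0040). Sox1 had 12.5, 12.8 and 2.38 in EPN and 50.7, 100.6 and 134 in HGG (-3.38 ± 0.68, adjusted p = 0.0061). Sox8, the closest relative of Sox9 and Sox10, had 115, 218 and 144 in EPN and 892, 2934 and 1050.3 in HGG (-3.18 ± 0.47, adjusted p = 0.0015). The 3 SoxE genes thus differed from each other, with Sox9 slightly higher in EPN, Sox8 higher in HGG and Sox10 not called. Sox18, of blood vessels, was 3.003 ± 0.39, adjusted p = 0.00085, Sox7, also of vessels, 2.18 ± 0.41, adjusted p = 0.0045, and the SoxD gene Sox13 2.10 ± 0.33, adjusted p = 0.0019. The other SoxD genes, Sox5 (-0.41 ± 0.40, adjusted p = 0.44) and Sox6 (-1.18 ± 0.42, adjusted p = 0.055), which join SOX9 in cartilage, did not pass. The nuclear factor I genes are glial factors that act beside SOX9. Nfic was higher in EPN (0.89 ± 0.21, adjusted p = 0.011), but not called with the GC correction (0.62). Nfia (-0.21 ± 0.19, adjusted p = 0.42) and Nfib (-0.55 ± 0.27, adjusted p = 0.14) were not called. Nfix was higher in HGG (-0.59 ± 0.18, adjusted p = 0.032), where the call was lost without EPN 1 or 2 or 3 or HGG 2 or 3 (-0.57, -0.56, -0.62, -0.49 and -0.61).

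Cartilage genes that SOX9 is known to bind were called higher in EPN for 10 of 17 tested genes and in HGG for 2, with a median of 2.25. Acan, aggrecan, had 7324, 4637 and 2983 rescaled reads in EPN and 109, 140.4 and 221 in HGG (4.95 ± 0.38, adjusted p = 0.00015). Col9a1, a collagen IX chain, had 2238, 2588 and 2852 in EPN and 243, 522 and 170.3 in HGG (3.19 ± 0.38, adjusted p = 0.00067). Col9a3 was 5.09 ± 0.72, adjusted p = 0.0013 and Col11a1 1.84 ± 0.20, adjusted p = 0.00045. Mia, a small secreted protein of chondrocytes, was 7.04 ± 0.33, adjusted p = 4.79e-05. Col2a1, the classical target, was spread widely, from 6429.9, 1917 and 747 in EPN to 109, 1240.5 and 405 in HGG, overlapped between the groups and did not pass (2.46 ± 0.996, adjusted p = 0.086). In the controls the list had a median of 2.99, and no gene of it differed between the 2 contrasts by the test. That test called 6.2% of all genes it covered. Cnmd, chondromodulin (listed as Lect1), went the other way (-1.46 ± 0.30, adjusted p = 0.0068).

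**Figure D3:**
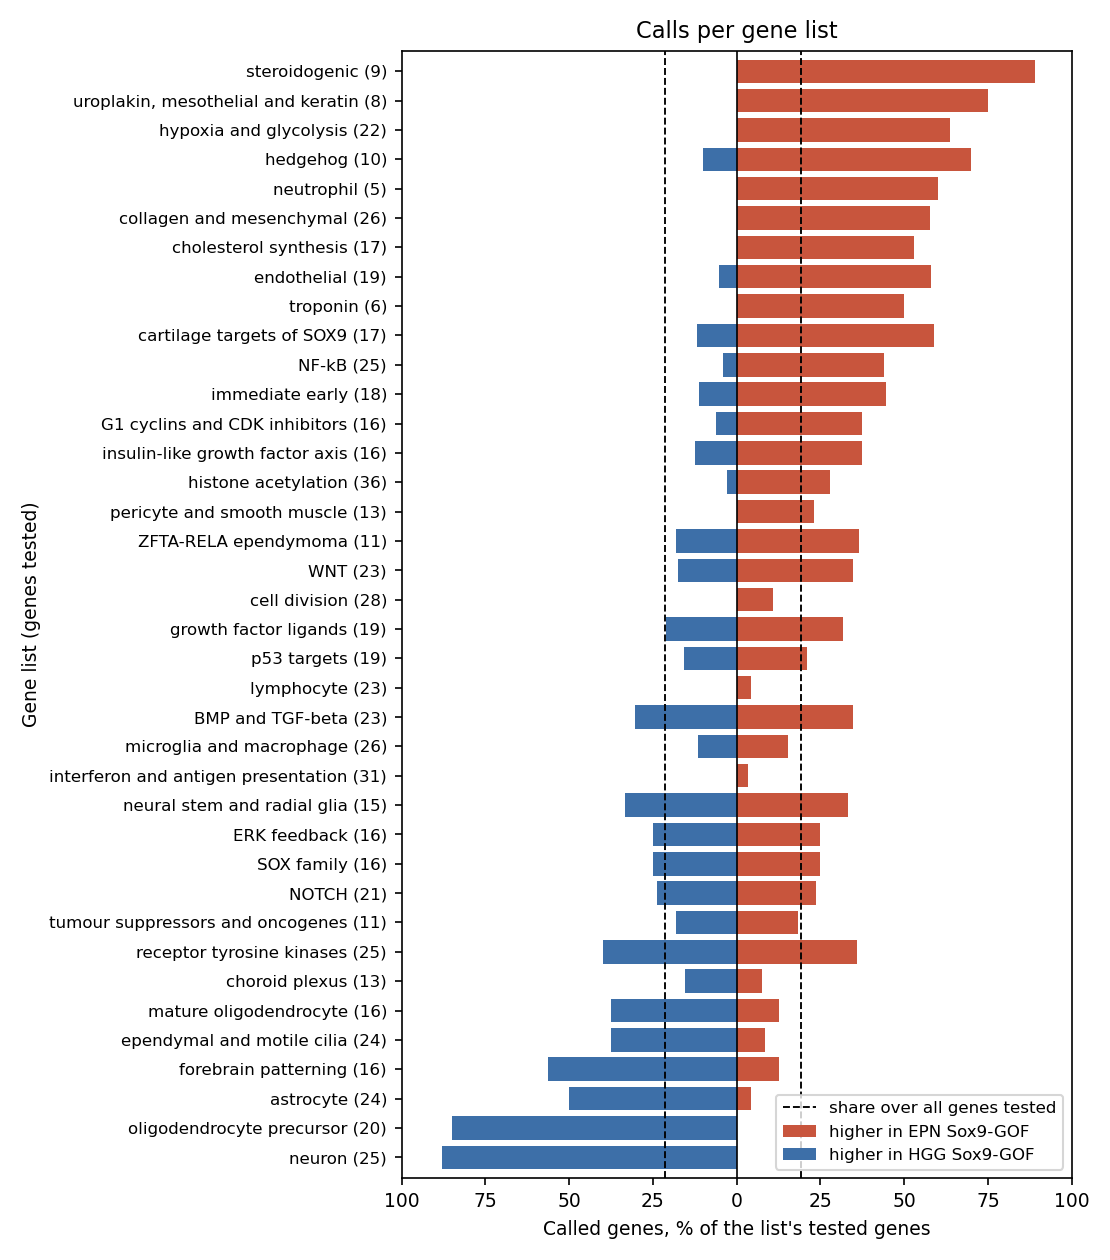
For the 38 gene lists with at least 5 tested genes, the sex-linked list aside, the percentage of its tested genes called higher in EPN (bars to the right) and higher in HGG (bars to the left), with the number tested after its name. Vertical lines mark the shares over all 15230 genes, 19.1% and 21.4%. Neuronal and oligodendrocyte precursor lists extend furthest to the left, steroidogenic, uroplakin (with mesothelial and keratin genes), hedgehog and hypoxia lists to the right.

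Receptor tyrosine kinases were divided between the models, with 9 of 25 higher in EPN and 10 in HGG. Erbb2 (chromosome 11, 98412484 to 98437716), the orphan partner of the EGF receptor family, had 1994, 1553 and 3029 rescaled reads in EPN and 31.1, 45.3 and 56.0 in HGG (5.59 ± 0.33, adjusted p = 7.95e-05). Erbb4, the neuregulin receptor of the same family, went the other way, with 24.1, 8.51 and 8.33 in EPN and 150.4, 277 and 166 in HGG (-3.88 ± 0.50, adjusted p = 0.00089). Pdgfrb, the PDGF-B receptor, was higher in EPN (4.01 ± 0.30, adjusted p = 0.00014) and Pdgfra in HGG. Ephb2, Axl, the receptor of GAS6 (2.34 ± 0.29, adjusted p = 0.00072), and Epha2, an ephrin receptor (2.85 ± 0.36, adjusted p = 0.00083), were higher in EPN. Ntrk3, the neurotrophin 3 receptor (-4.21 ± 0.37, adjusted p = 0.00022), and Ret, the GDNF receptor (-2.34 ± 0.39, adjusted p = 0.0026), were higher in HGG. So were Fgfr3 (-2.65 ± 0.44, adjusted p = 0.0025) and Met, the HGF receptor (-1.95 ± 0.38, adjusted p = 0.0051). Egfr had 104, 158 and 76.1 in EPN and 251, 1384 and 401 in HGG, with HGG 2 the highest (-2.25 ± 0.61, adjusted p = 0.022), and the call was lost without EPN 1 or 3 (-2.23 and -1.98). Fgfr1 was higher in EPN (1.78 ± 0.45, adjusted p = 0.016), and the call was lost without EPN 2 (1.55).

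The ligands were divided too, 6 of 19 higher in EPN and 4 in HGG. Pdgfb and Pdgfa, ligands of the PDGF receptors, were higher in EPN. Pdgfb had 2503, 2608 and 2469 rescaled reads in EPN and 242, 165 and 285 in HGG (3.48 ± 0.23, adjusted p = 0.00012). Pdgfa had 526, 849 and 704 in EPN and 162, 275 and 213 in HGG (1.68 ± 0.28, adjusted p = 0.0025), and no libraries overlapped for either. Vegfa, which drives vessel growth, had 4396, 5245 and 10318 in EPN and 516, 366 and 652 in HGG (3.64 ± 0.36, adjusted p = 0.00032), and Vegfc, of lymphatic vessels, was 4.02 ± 0.47, adjusted p = 0.00060. Higher in HGG were Tgfa, an EGF receptor ligand (-3.55 ± 0.58, adjusted p = 0.0023), and Hgf, the ligand of Met (-2.76 ± 0.56, adjusted p = 0.0065), and so were the neurotrophin Bdnf (-3.26 ± 0.69, adjusted p = 0.0075) and Fgf9 (-2.10 ± 0.45, adjusted p = 0.0083). Genes that report ERK activity had 4 of 16 called in each direction, near the 19.1% and 21.4% of all genes tested. Etv5 (1.74 ± 0.29, adjusted p = 0.0025), an ETS factor, Spry4 (2.11 ± 0.39, adjusted p = 0.0043) and Ier3 (2.06 ± 0.38, adjusted p = 0.0041) were higher in EPN. Spry1 (-1.80 ± 0.33, adjusted p = 0.0041), Spred3 (-2.36 ± 0.35, adjusted p = 0.0015) and Etv1 (-1.93 ± 0.26, adjusted p = 0.00097) were higher in HGG. Il17rd, an inhibitor of FGF signalling, was higher in HGG (-2.12 ± 0.43, adjusted p = 0.0064).

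The NOTCH, WNT and BMP or TGF-beta lists also held genes called in both directions. The median of each of the 3 lists changed sign under at least 1 other setting. That of the WNT list went from 0.435 to -0.166 without EPN 3. In the NOTCH list 5 of 21 were called in each direction, near the shares of all genes tested (19.1% and 21.4%). Lfng, which glycosylates the receptors (2.09 ± 0.17, adjusted p = 0.00017), Notch2 (1.58 ± 0.23, adjusted p = 0.0014), and the vessel ligand Dll4 (3.16 ± 0.45, adjusted p = 0.0013) were higher in EPN. Dll3, the ligand of neural progenitors and neuroendocrine tumours, had 6.25, 13.8 and 5.95 in EPN and 65.8, 512 and 97.8 in HGG (-4.05 ± 0.78, adjusted p = 0.0051). The NOTCH target Hes1 was higher in EPN (1.17 ± 0.28, adjusted p = 0.013) and Hey2 in HGG (-2.12 ± 0.26, adjusted p = 0.00075). In the WNT list 8 of 23 were called higher in EPN and 4 in HGG. Sfrp1, a secreted antagonist, had 11482, 7177 and 14091 rescaled reads in EPN and 821, 266 and 698 in HGG (4.29 ± 0.45, adjusted p = 0.00040). The ligands Wnt5a (2.10 ± 0.29, adjusted p = 0.0012) and Wnt5b (3.66 ± 0.43, adjusted p = 0.00061) and the TCF factor Tcf7 (3.28 ± 0.37, adjusted p = 0.00052) were higher in EPN. The ligand Wnt7a (-3.39 ± 0.79, adjusted p = 0.011), the receptor ligase Rnf43 (-3.47 ± 0.53, adjusted p = 0.0018) and Dkk3 (-2.80 ± 0.47, adjusted p = 0.0027) were higher in HGG. In the BMP and TGF-beta list 8 of 23 were called higher in EPN and 7 in HGG.

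Inhibitory SMADs of that list were higher in EPN, and its ligands were divided. Tgfb3 had 1928, 2239 and 2566 rescaled reads in EPN and 152, 150.4 and 175 in HGG (3.80 ± 0.19, adjusted p = 4.79e-05). The ligands Bmp6 (4.06 ± 0.49, adjusted p = 0.00064) and Bmp7 (3.48 ± 0.38, adjusted p = 0.00047) were higher in EPN. The ligand Tgfb2 was higher in HGG (-1.64 ± 0.45, adjusted p = 0.023), where the call was lost without EPN 1 or 2 or HGG 2 or 3 (-1.61, -1.64, -1.31 and -1.47), and Tgfb1 (0.66 ± 0.25, adjusted p = 0.073) and Bmp4 (-0.90 ± 0.67, adjusted p = 0.32) did not pass. Higher in EPN were the inhibitors Smad6 (3.47 ± 0.42, adjusted p = 0.00066) and Smad7 (2.95 ± 0.31, adjusted p = 0.00042). The receptor Bmpr1b had 46.4, 71.3 and 36.9 in EPN and 255, 455 and 641 in HGG (-3.06 ± 0.41, adjusted p = 0.0010). Smad9, a BMP effector, was -3.78 ± 0.46, adjusted p = 0.00068, and Chrdl1, a BMP antagonist, -2.10 ± 0.48, adjusted p = 0.010. For these 3 genes every HGG library stood above every EPN library.

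Extracellular matrix, endothelial and hypoxia lists held many genes higher in EPN. In the collagen and mesenchymal list 15 of 26 were called higher in EPN and none in HGG (median 1.92). Col1a1, a chain of fibrillar collagen, had 25173, 16515 and 11770 rescaled reads in EPN and 129.9, 130.5 and 158 in HGG (6.92 ± 0.28, adjusted p = 2.91e-05), so the groups lay far apart. Col4a1 and Col4a2, of basement membrane, were 4.16 ± 0.26, adjusted p = 0.00010 and 4.38 ± 0.23, adjusted p = 5.68e-05, and Fn1, fibronectin, was 3.65 ± 0.39, adjusted p = 0.00042. Cd44, the hyaluronan receptor, overlapped between the groups (-0.24 ± 0.29, adjusted p = 0.55). Endothelial genes were called higher in EPN for 11 of 19 and in HGG for 1. This was Mfsd2a, the lipid transporter of the blood-brain barrier (-1.07 ± 0.35, adjusted p = 0.044), where the call was lost without EPN 1 or 2 or 3 or HGG 2 or 3 (-0.88, -1.19, -1.13, -1.005 and -0.80). Cdh5, the endothelial cadherin, had 628, 562 and 502 in EPN and 106, 81.5 and 87.9 in HGG (2.61 ± 0.22, adjusted p = 0.00020). Pecam1 was 1.73 ± 0.38, adjusted p = 0.0094 and Emcn 3.16 ± 0.35, adjusted p = 0.00051. The list summed to between 4725 and 8469.6 rescaled reads in EPN and between 2836 and 4154 in HGG. Of the pericyte list 3 of 13 were called, all higher in EPN: Pdgfrb, Des, desmin (3.53 ± 0.83, adjusted p = 0.012), and Mylk. This lay near the 19.1% of all genes tested, and the list median of -0.04 changed sign under other settings. In Mylk, myosin light chain kinase (1.42 ± 0.46, adjusted p = 0.041), the call was lost without EPN 1 or 3 or HGG 1 or 2 or 3 (1.62, 0.91, 1.23, 1.501 and 1.51), with the GC correction (1.295) and with scaling to the total of reads (1.27). Acta2, smooth muscle actin, overlapped (149.9, 209.5 and 161 in EPN against 417, 177 and 125 in HGG). Of 22 hypoxia and glycolysis genes 14 were called higher in EPN and none in HGG (median 1.14). Besides Vegfa these included Adm, adrenomedullin (3.25 ± 0.52, adjusted p = 0.0022), and Car9, carbonic anhydrase 9 (2.49 ± 0.51, adjusted p = 0.0064). Others were Slc2a1, the glucose transporter (1.3006 ± 0.30, adjusted p = 0.011), and Ddit4, an mTORC1 inhibitor (2.60 ± 0.25, adjusted p = 0.00029). EPN 3 was the highest library for Vegfa, Adm, Car9 and Slc2a1.

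In most immune cell lists a smaller share of genes was called than the 40.5% of all genes tested. Of 26 microglia and macrophage genes 4 were called higher in EPN and 3 in HGG, and the list summed to between 60624 and 179859 rescaled reads in EPN and between 77549 and 111266 in HGG. Csf1r, the receptor these cells need, overlapped (2831, 7345 and 2268 in EPN and 4270.1, 3619.9 and 5725 in HGG, -0.30 ± 0.43, adjusted p = 0.61). P2ry12, of resting microglia, was higher in HGG (462, 427 and 344 in EPN against 757, 1118 and 1620.5 in HGG, -1.44 ± 0.29, adjusted p = 0.0063). Tmem119, another microglial marker, was higher in EPN (1.85 ± 0.21, adjusted p = 0.00052), as were Ms4a7 (2.49 ± 0.34, adjusted p = 0.0011) and Lyz2, lysozyme (1.67 ± 0.34, adjusted p = 0.0062), of macrophages. Of 23 lymphocyte genes 1 was called, and of 31 interferon and antigen presentation genes 1 was called, both higher in EPN. The lymphocyte list varied widely, at summed rescaled reads of 3550.0, 2510.2 and 268.9 in EPN and 1769.8, 423.2 and 1457.9 in HGG. In the neutrophil list 5 of 10 genes were tested and 3 were higher in EPN. The summed reads of that list overlapped, at 463.9, 961.5 and 259.4 in EPN and 725.2, 513.8 and 907.5 in HGG. Cd79a, of B cells, had 2095, 231 and 126 in EPN and 7.12, 4.53 and 63.7 in HGG (4.79 ± 1.23, adjusted p = 0.018), with EPN 1 the highest. For Cd79a the call was lost without HGG 1 or 2 (4.37 and 4.10). Irf7, an interferon regulatory factor, had 5168, 5395 and 2389 in EPN and 2278, 757 and 1333 in HGG (1.62 ± 0.46, adjusted p = 0.026), and the call was lost without EPN 1 or 2 or HGG 2 or 3 (1.44, 1.42, 1.21 and 1.62). The 4 adult globin genes had 0 reads in all 6 libraries. How reads were counted was not stated, so this does not show an absence of red cells. Slc4a1, the anion exchanger of red cells and kidney, had 72.3, 19.1 and 20.2 rescaled reads in EPN and 1 read in HGG, a ratio of 125 (95% counting interval 22.1 to 4997).

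Of 17 cholesterol synthesis genes 9 were called higher in EPN and none in HGG (median 0.71). Srebf2, the factor that drives the pathway, had 3633, 2995 and 3004 rescaled reads in EPN and 1710.2, 1811 and 1524 in HGG (0.93 ± 0.17, adjusted p = 0.0042). The enzymes Nsdhl (1.14 ± 0.18, adjusted p = 0.0022) and Lss (0.71 ± 0.16, adjusted p = 0.0098) were higher in EPN too. Immediate early genes had 8 of 18 called higher in EPN and 2 in HGG. Egr1, a zinc-finger factor, had 1661, 1885 and 2930.2 in EPN and 612, 382 and 672 in HGG (1.95 ± 0.30, adjusted p = 0.0017). Ier2 was 2.76 ± 0.19, adjusted p = 0.00012, and the KLF factors Klf2 and Klf4 were 2.30 ± 0.35, adjusted p = 0.0017 and 3.16 ± 0.27, adjusted p = 0.00019. The neuronal activity genes Egr3 (-3.37 ± 0.58, adjusted p = 0.0030) and Arc (-1.71 ± 0.47, adjusted p = 0.023) were higher in HGG, and for Arc the call was lost without EPN 1 or 2 or HGG 1 or 3 (-1.63, -1.68, -1.43 and -1.45).

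Few proliferation genes were called. Of 28 cell division genes 3 were higher in EPN and none in HGG, a smaller share than the 19.1% and 21.4% of all genes, although the median was 0.80. Mki67 had 5662, 2489.9 and 2404 rescaled reads in EPN and 3084, 5052 and 1088 in HGG, which overlapped (0.33 ± 0.58, adjusted p = 0.68). Top2a had 5410.2, 2285 and 1976 in EPN and 4962, 3346 and 1101 in HGG and overlapped too (0.14 ± 0.60, adjusted p = 0.87). HGG 3 was the lowest library for both. Of 16 genes of the G1 phase 6 were called higher in EPN and 1 in HGG. Ccnd3, a D cyclin, had 6324, 7319 and 8723 in EPN and 1602, 1446 and 626 in HGG (2.71 ± 0.36, adjusted p = 0.0010). Cdk6, its kinase, was 2.69 ± 0.47, adjusted p = 0.0033. The locus that restrains them was higher in EPN as well. Cdkn2a had 2207, 1896 and 2287 in EPN and 700.3, 944 and 286 in HGG (1.89 ± 0.41, adjusted p = 0.0085), and Cdkn2b was 1.45 ± 0.35, adjusted p = 0.013. Rb1, the retinoblastoma gene, was higher in HGG (-0.96 ± 0.24, adjusted p = 0.016), where the call was lost without HGG 2 or 3 (-0.91 and -0.91). Targets of p53 had 4 of 19 higher in EPN, such as Bbc3, the PUMA killer protein (1.31 ± 0.25, adjusted p = 0.0048), and 3 in HGG, such as Zmat3, an RNA-binding protein (-1.32 ± 0.22, adjusted p = 0.0025). Over all genes tested the shares were 19.1% and 21.4%. Of 36 histone acetylation genes 10 were called higher in EPN and 1 in HGG. Rcor2, a CoREST corepressor, had 1262, 840.3 and 945 in EPN and 63.2, 149.5 and 64.8 in HGG (3.54 ± 0.37, adjusted p = 0.00039). Mta1, of the NuRD complex, was 1.67 ± 0.18, adjusted p = 0.00046, and Hdac7, a class II deacetylase, 1.38 ± 0.22, adjusted p = 0.0020. Ep300, the acetyltransferase, was not called (0.43 ± 0.24, adjusted p = 0.19).

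Forebrain patterning genes leaned to HGG, 9 of 16 tested against 2. The other 6 of the 22 listed genes were not tested. Genes low in EPN, such as Emx1, Dlx1 and En2, entered the test only through HGG, which set their direction. Emx1, of the cortex, had 6.25, 5.32 and 3.57 rescaled reads in EPN and 127, 33.5 and 104 in HGG (-3.71 ± 0.60, adjusted p = 0.0023). Dlx1, of interneuron progenitors, had 3.57, 7.45 and 5.95 in EPN and 40.9, 31.7 and 50.5 in HGG (-2.68 ± 0.49, adjusted p = 0.0039). En2, a midbrain and hindbrain factor, had 3 reads in EPN and 106, 123 and 59.3 rescaled reads in HGG, a ratio of 95.2 (95% counting interval 32.3 to 464) in favour of HGG. The 2 higher in EPN were Otx1 and Lhx2. Otx1 had 343, 305 and 432 in EPN and 29.4, 33.5 and 36.3 in HGG (3.40 ± 0.27, adjusted p = 0.00017). Lhx2 had 1254, 1271 and 1247 in EPN and 215, 270.0 and 358 in HGG (2.19 ± 0.22, adjusted p = 0.00035).

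The same models were then compared in libraries without the gain of function. Of 14946 genes tested in the controls, 2339 were called (15.6%), 1425 higher in EPN (9.53%) and 914 higher in HGG (6.12%). The HGG controls varied more than the gain-of-function groups, with Pearson correlations of 0.8304 to 0.8681 among themselves, so fewer calls there do not show a smaller difference. The count also turned on single libraries, 3635 without HGG control 1 and 649, 385 and 719 without EPN control 1, 2 and 3. Of 2855 genes higher in EPN with Sox9-GOF and tested in the controls, 939 were called the same way there (32.9%), 2491 had the same sign and 21 were called the opposite way. For 3113 genes higher in HGG the same counts were 553 (17.8%), 2643 and 4. Conversely 66.2% of the genes higher in EPN controls, and 61.4% of those higher in HGG controls, were called the same way with the gain of function. The genes higher in HGG had a median log2 fold change of -2.26 with Sox9-GOF and -0.88 in the controls, and those higher in EPN 1.47 and 0.90; the first value of each pair is set by the choice of called genes.

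**Figure D4:**
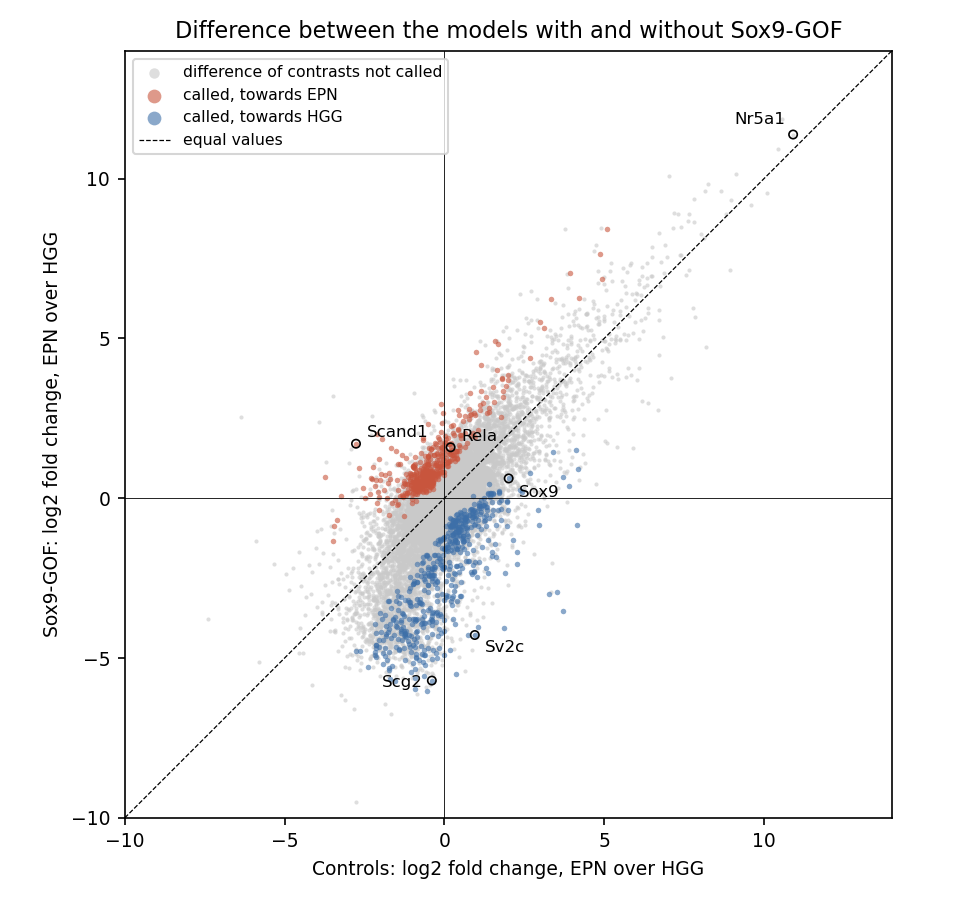
Log2 fold change of EPN over HGG in the controls (horizontal axis) and with Sox9-GOF (vertical axis) for the 14773 genes tested in both contrasts, which share no library. Coloured points are genes called by the test of the difference between the contrasts, 420 towards EPN and 506 towards HGG, and they lie away from the diagonal line of equal values.

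A direct test of the difference between the 2 contrasts, over all 12 libraries, called 938 of 15141 genes (6.2%), 424 in the direction of EPN (2.8%) and 514 in that of HGG (3.39%). The number rests on single libraries. It ran from 44 without EPN control 3 to 2146 without HGG control 3. It was 46 without EPN control 2, 91 without HGG Sox9-GOF 3, 266 without HGG Sox9-GOF 2 and 354 without HGG Sox9-GOF 1. The other counts were 392, 575 and 808 without EPN Sox9-GOF 3, 2 and 1, 449 without EPN control 1, and 612 and 623 without HGG control 2 and 1. With scaling to the total of reads the split was 276 and 680. Of the genes called higher in EPN with Sox9-GOF, the difference was called towards EPN for 258 and towards HGG for 3. Of those called higher in HGG it was called towards HGG for 409 and towards EPN for 2. These genes were chosen by their calls with Sox9-GOF, which favours such a direction. Some, such as Scand1, had the opposite order in the controls, so the counts do not give how many were further apart. Of all calls of the difference, 110 towards EPN and 81 towards HGG were called the opposite way in the controls. The log2 fold change with Sox9-GOF correlated with GC content at a Spearman rho of 0.143 across genes, that in the controls at -0.247 and their difference at 0.41. With the libraries corrected for GC content, an alternative chosen after this was seen, 58 genes were called, 15 towards EPN and 43 towards HGG. The direct contrast with Sox9-GOF had 6206 calls under the same correction, which kept 5611 of its 6165 calls. The 5 largest differences towards HGG were in Npy2r, a neuropeptide Y receptor (-5.91 ± 1.52, adjusted p = 0.046), Dgkb, a diacylglycerol kinase (-5.82 ± 1.14, 0.023), Scg2 (-5.29 ± 1.26, 0.038), Fam135b (-5.29 ± 1.2995, 0.041) and Sv2c, a synaptic vesicle protein (-5.20 ± 0.53, 0.0078). Sv2c had 15.2, 10.6 and 7.14 rescaled reads in EPN and 150.4, 347 and 212 in HGG with Sox9-GOF. The controls had 43.8, 46.6 and 51.8 in EPN and 23.2, 26.7 and 22.2 in HGG, where the order of the models was the opposite and was not called (0.95 ± 0.32, adjusted p = 0.093). The 5 largest towards EPN were Scand1, a SCAN domain protein (4.49 ± 0.49, adjusted p = 0.0083), Mir6236 (4.43 ± 0.83, 0.021), Dmrta2, a cortical progenitor factor (3.81 ± 0.90, 0.037), Nrtn, the GDNF family ligand neurturin (3.54 ± 0.74, 0.026), and Zfp771, a zinc-finger protein (3.29 ± 0.34, 0.0078). Scand1 had 336, 379 and 215 in EPN and 114, 82.5 and 82.4 in HGG with Sox9-GOF (1.70 ± 0.30, adjusted p = 0.0035). In the controls HGG was higher, with 159, 71.3 and 77.7 in EPN against 640.3, 848 and 527 in HGG (-2.77 ± 0.37, adjusted p = 0.0076). Rn45s, the ribosomal precursor that polyA selection removes in part, had 47180, 24926 and 126680 rescaled reads in EPN and 81467, 8662 and 28643 in HGG, so it varied within both groups. Mir6236 was listed with Rn45s, Lars2 and Malat1 as a marker of RNA quality. That list had a median of 0.53 with Sox9-GOF, with 1 of 4 genes called higher in HGG. In the controls its median was -1.61, with 2 of 4 called higher in HGG. The part of RNA quality in the differences was not tested.

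Few of these single calls withstood both checks. Of the 38 genes named here whose model difference itself differed between gain of function and controls, 5 kept that call without each of the 12 libraries: Scand1, Sv2c, Zfp771, Ier2 and Mta1. With the correction for GC content 3 of the 38 kept it, Scand1 (3.26), Sv2c (-5.03) and Ret (-3.80), so that Scand1 and Sv2c alone passed every one of these settings. Ier2, an immediate early gene, was 2.36 ± 0.35 (adjusted p = 0.016), against 1.63 after the correction. Mta1, of the NuRD deacetylase complex, was 1.72 ± 0.25 (adjusted p = 0.014), against 1.19, and had 1059, 1009 and 824 rescaled reads in EPN controls and 1066, 1046 and 831 in HGG controls (-0.03 ± 0.19). Ret, the GDNF receptor, was -3.68 ± 0.59 (adjusted p = 0.019), with 67.1, 49.5 and 60.0 in EPN controls and 11.98, 32.1 and 27.9 in HGG controls. The precursor genes Ptprz1 and Pcdh15 were -2.91 ± 0.52 and -3.22 ± 0.65, and -2.57 and -2.89 after the correction, without a call.

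**Figure D5:**
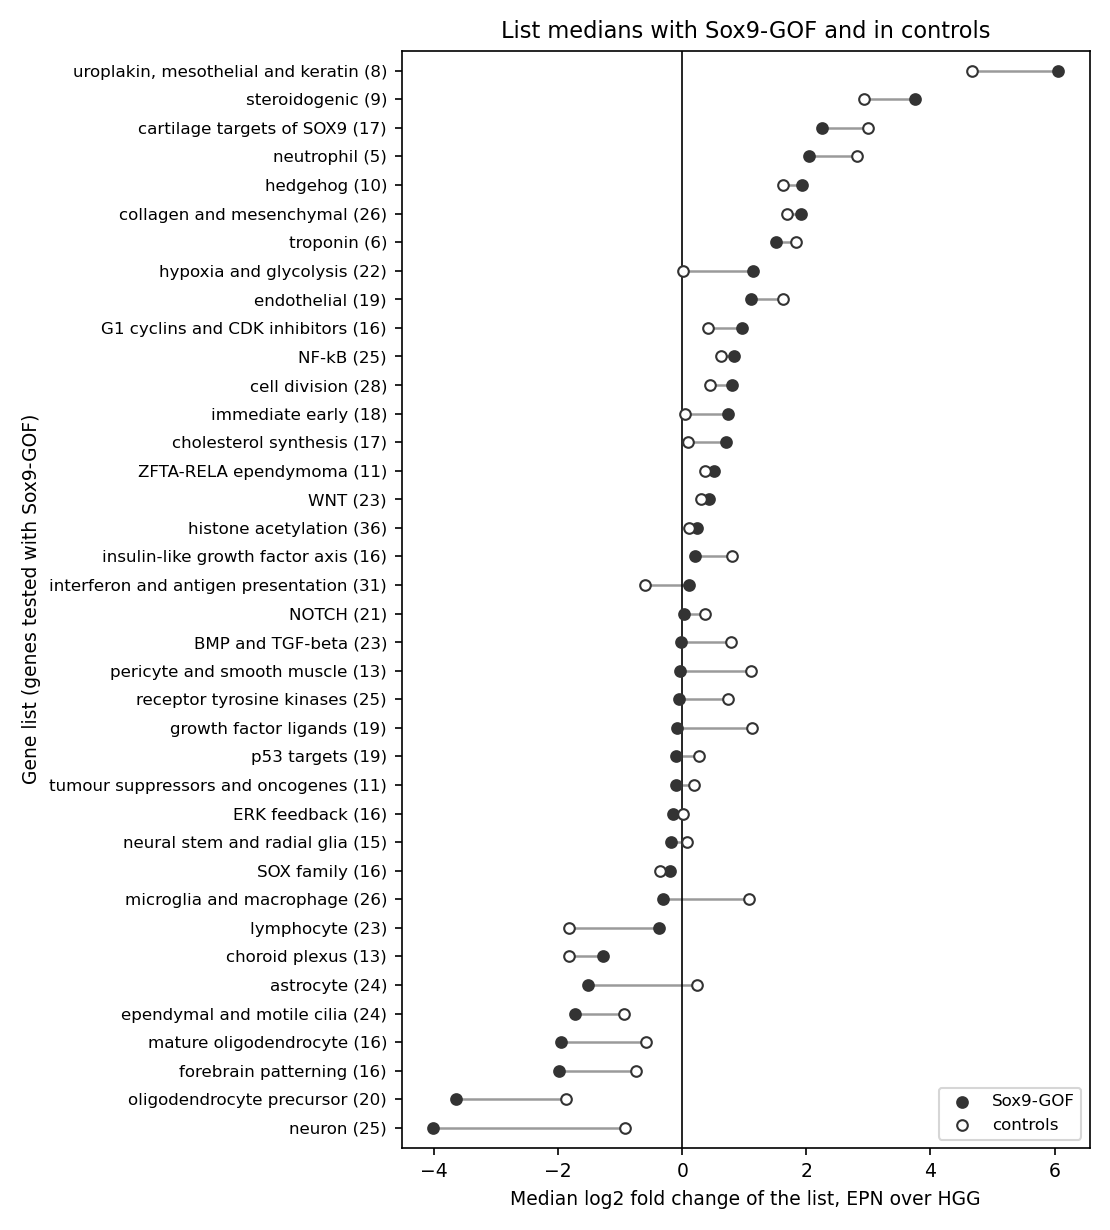
Median log2 fold change of EPN over HGG for each of the same 38 gene lists with Sox9-GOF (filled circles) and in the controls (open circles), joined by a line, with the number of genes tested with Sox9-GOF. The medians of 13 of the lists changed sign under other settings. The neuronal list stood at -4.02 with Sox9-GOF and -0.93 in the controls, and the cartilage list at 2.25 and 2.99.

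List medians set side by side show where the contrasts lay with and without the gain of function. The neuronal list had a median of -4.02 with Sox9-GOF and -0.93 in the controls, where 2 of its genes were called higher in HGG, and by the test of the difference 1 gene was called. The oligodendrocyte precursor list stood at -3.64 and -1.87, and the astrocyte list at -1.51 and 0.24, on opposite sides of 0. The hypoxia list was at 1.14 and 0.01. By the test of the difference 2 of 20 precursor genes were called, 0 of 24 astrocyte genes and 0 of 22 hypoxia genes. Over all genes tested, 6.12% were called higher in HGG controls and 6.2% by the test of the difference. The counts of called genes in these lists lay near those shares. Lists higher in EPN had medians above 0 in both: the steroidogenic list stood at 3.75 and 2.93, the hedgehog list at 1.93 and 1.63, and the endothelial list at 1.113 and 1.62. The difference between the medians of a list was not tested.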

How the data were processed

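The deposited values are signal of polyA RNA sequencing: read counts per gene, each library scaled by the authors with its own size factor, in 3 tables of 24421 genes. The submitters' processing notes name mm10, FastQC 0.11.7, MultiQC 1.11, STAR 2.5.0a and DESeq2 1.30.1. Which tool counted the reads, with which strand setting and annotation, was not stated, so overlapping and antisense genes cannot be told apart. Dividing each column by the value of 1 read gave whole reads for all genes within 0.001 read. In the 2 tables that hold HGG controls these were identical. The reads, of 10578708 to 14119140 per gain-of-function library, were rescaled together by the median of ratios over the libraries of each comparison, 6, 6 or 12. Log2(rescaled reads + 1) of genes with a mean of at least 10 was tested with limma 3.58.1 (trended variance, two-sided, Benjamini-Hochberg) in R 4.3.3, and the script was tested on simulated data. Alternatives were edgeR 4.0.16 and DESeq2 1.42.0 on the recovered reads, other pseudocounts, filters and scalings, a replicate block, a GC correction and leaving out each library. Intervals of ratios are 95% and cover counting error only. Gene names that a spreadsheet had turned into dates (27) were tested but not named. The members and gene lists were chosen with earlier results of these data known. Genes are named by a rule: fixed genes that include Zfta, Rela, Trp53, Nf1 and Sox9; the 15 largest called differences in each direction (higher group with a mean of at least 100, no overlap, no predicted or sex-linked genes); the first 3 members of a list and its 5 smallest adjusted p-values in each direction, all members of small lists; and the 5 largest differences between the contrasts in each direction. Some genes that the rule names are not reported here. Exact permutation of 3 against 3 libraries cannot give a p under 0.1. Positions and promoters are from RefSeq on GRCm38.p6.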

Additional observations from a re-analysis of the deposited data

Results flagged for a closer look

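For 38 genes named in the report the difference between the models itself differed between the gain-of-function and control libraries, by the test of that difference (limma, adjusted over 15141 genes). Values are log2 fold change with Sox9-GOF minus that in the controls. Towards EPN were Scand1 (4.49), Mir6236 (4.43), Dmrta2 (3.81), Nrtn (3.54), Zfp771 (3.29), Tcf7 (2.504), Ier2 (2.36), Klf2 (2.03), Fdxr (1.97), Egr1 (1.95), Hdac7 (1.85), Mta1 (1.72), Bbc3 (1.53) and Rela (1.42). Towards HGG were the neuronal and synaptic genes Npy2r (-5.91), Dgkb (-5.82), Scg2 (-5.29), Sv2c (-5.20) and Map2 (-1.84), with Fam135b (-5.29), Zdbf2 (-4.86), Tmem178b (-4.56) and Rab9b (-4.08). The glial genes Pcdh15 (-3.22), Ptprz1 (-2.91) and Ugt8a (-2.23), the microglial P2ry12 (-2.995) and the ciliary factor Rfx3 (-2.10) lay on that side too. So did the receptors Ret (-3.68), Erbb4 (-3.36) and Bmpr1b (-3.31), the BMP genes Chrdl1 (-2.96) and Smad9 (-2.77), Il17rd (-2.45), Atrx (-1.90), Braf (-1.42), Sox9 (-1.37) and Rb1 (-1.35). Under the correction for GC content Scand1, Sv2c and Ret kept the call, and 5 of the 38 kept it without each of the 12 libraries.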

How the results depend on the processing

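The direct contrast of the gain-of-function models gave 4689 to 6920 called genes under all alternatives run. None of the 6165 genes called in the main fit was called there with the opposite sign. Without 1 library the direct contrast gave 4689 to 5718, with edgeR 6086 and with DESeq2 6920. Of 212 genes named and called, 194 kept the call without each library. The Y-linked Eif2s3y lost it without 5 libraries (4.836 to 6.526) and with edgeR (2.414), and the report gives the others with their values. The comparison of the controls gave 4392 genes with DESeq2, 1129 with the replicate block, and 385 to 3635 without 1 library. The test of the difference between the contrasts gave 2467 with DESeq2, 58 with the GC correction, which was chosen after the data were seen, and 44 to 2146 without 1 library; TMM scaling shifted its median over all genes to -0.10. With edgeR 451 of its 816 calls were towards EPN. Replicate numbers did not pair the libraries: deviations of same-numbered libraries correlated at 0.171, -0.21 and -0.040, and the replicate block gave 5496 calls in the direct contrast and 873 in the test of the difference. Of the named genes Ak7, Cyp11a1, Gli2, Nfix, Nfkb2 and Sox9 were not called with it. Genes that did not pass changed sign. Without 1 library Acta2 ran from -0.67 to 0.195, Cd44 from -0.51 to 0.03, Csf1r from -0.809 to 0.054, Mki67 from -0.296 to 0.811 and Top2a from -0.499 to 0.587. Top2a was -0.01 with scaling to the total of reads. Medians of 13 lists changed sign in 38 of their recomputations. With 3 libraries a group the median standard error was 0.30, so small differences were not detectable.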
